A study of Caenorhabditis elegans with 14 samples.

Results

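An iso-miR, as tabulated here, is the summed reads of a microRNA (miRNA) whose first base lies 1 to 3 nt upstream or downstream of the annotated 5′ end. The table gives it beside the mature miRNA, which starts at the annotated base, so each miRNA has a pair of rows in every library. The 109 iso-miRs described here were chosen on their level: of 450 iso-miR rows they are those whose deposited value averaged at least 1 rpm (reads scaled to library size by the authors) over all 14 libraries, and each was set against the mature row of the same miRNA. The last rows inside the limit were miR-77-5p at 1.02 rpm and miR-36-5p at 1.02 rpm, and the first outside were miR-785-3p at 0.996 rpm and miR-355-5p at 0.961 rpm. Another 107 of the 450 rows were at 0 in every library.

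The libraries were made from whole gravid hermaphrodites of Caenorhabditis elegans. The pash-1(ram33[G179R]) mutants (strain TAM93), which carry a glycine to arginine substitution in the WW domain of PASH-1, and the wild-type strain N2 were grown from synchronized first-stage larvae, either at 20 °C for 72 h (3 libraries per strain) or at 25 °C for 54 h (4 libraries per strain). The mutation came from a chemical mutagenesis screen and is represented by a single strain. Temperature and growth time differ together and cannot be told apart. In whole animals, a lower share of a tissue and less RNA per cell cannot be told apart either. The study reports developmental defects in mutants at the higher temperature, and states that these limit what can be read from single miRNAs there. It also reports fewer progeny, frequent sterility and, in some mutants, protruding vulvas or bursting at that temperature. Whether the libraries of the strains were matched in stage or in embryo content was not tested.

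Most animal miRNAs are cut from their hairpins by a pair of ribonucleases in turn. Drosha, with its RNA-binding partner PASH-1 (DGCR8 in mammals), makes the first cut in the nucleus, and this cut sets the 5′ end of the miRNA on the 5p arm. Dicer cuts near the loop and sets the 5′ end of the miRNA on the 3p arm. The bases just behind the 5′ end form the seed, which selects the target mRNAs, so a miRNA that starts a base early or late carries another seed. Mirtrons are hairpins released by splicing, and they skip the Drosha cut. In humans, Drosha complexes short of DGCR8 have been reported to cut less precisely, and the ratio of iso-miR to mature miRNA asks whether the starts of miRNAs were less precise in pash-1(ram33[G179R]) mutants. The rows do not tell an upstream from a downstream start, nor a shift of 1 nt from a shift of 3 nt.

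Low values moved in steps of 0.0425 to 0.0609 rpm, taken as the worth of a single read, which puts the depth at an estimated 16400000 to 23500000 reads per library. By this estimate 98 of the 109 iso-miRs had at least 10 reads in every library, and 90 averaged at least 1 rpm in each of the 4 groups. Of the 109 miRNAs, 104 could be placed by name on the WBcel235 annotation, and none of these has another annotated mature 5′ end within 3 nt of its own. Listed features summed to 861431.79 rpm in replicate 4 of the 25 °C mutants and to 812424.49 to 828466.12 rpm in the other 3, against 898605.7 to 903721.52 rpm in wild-type at 25 °C.

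Shifted starts were rare for most miRNAs. The iso-miR share of its pair (iso-miR as a percent of iso-miR plus mature rpm, summed over the 14 libraries) had a median of 0.96%. It was under 1% for 56 miRNAs, 1 to 10% for 22, 10 to 50% for 21 and over 50% for 10. The lowest share belonged to miR-58a-3p, the main product of a hairpin at IV:3233254-3233350 and the worm relative of fly bantam, at 0.0329% (18.2 rpm of iso-miR beside 55238 rpm of mature miRNA). miR-82-3p of the same family was at 0.0526% and miR-81-3p at 0.076%, followed by miR-77-5p at 0.0799% and miR-72-5p at 0.167%.

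Among the 109, iso-miR reads came mostly from few miRNAs. The first 10 by level held 59.1% of the iso-miR rpm of the 109. The 109 held 99% of all iso-miR rpm, which largely follows from the limit that chose them. miR-1-3p, the muscle miRNA, had the most iso-miR, at 690 rpm, yet this was 0.339% of its pair. Next were miR-35-3p at 315 rpm, a member of the family needed in embryos, and miR-37-3p of the same family at 241 rpm. miR-240-3p had as much iso-miR as miR-37-3p, 241 rpm, beside only 163 rpm of mature miRNA. The rest of the first 10 were miR-48-5p, miR-246-3p, miR-248, miR-80-3p, miR-61-3p and miR-85-3p, at 127 to 230 rpm. Across the 109, levels of iso-miR and mature miRNA had a Spearman correlation of 0.571, and the iso-miR share was lower at higher mature levels (Spearman -0.822). Both are descriptions across miRNAs that share libraries, and both contain the lower limit on the iso-miR.

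For 4 miRNAs the iso-miR exceeded the mature row in all 14 libraries, and for 11 it did so in at least 1 library. The 4 were miR-240-3p (59.6% of the pair), miR-8196a-3p (97.3%), miR-64-3p (98.7%) and miR-2953-3p (99.8%). The annotated start of miR-2953-3p, from an intron of F41G3.5 at II:6747182-6747242, was nearly empty, with 0.05 rpm in 1 library per temperature and 0 in the other 12. The mature row of miR-64-3p was between 0 and 0.19 rpm. For these 2 miRNAs the ratio to the mature row follows the iso-miR and the constant added to it. Of the mirtrons, miR-1020-3p stood at 66.3% and miR-4816-3p at 39.9%.

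The weaker arm of a hairpin had the larger iso-miR share in 17 of the 21 hairpins with both arms among the 109. The limit on the iso-miR bears on this count, since an arm with few mature reads could be among the 109 only with a large share, and it is given as a description. The arms of miR-64 stood at 98.7% on miR-64-3p and 0.392% on miR-64-5p, and those of miR-58a at 23.4% on miR-58a-5p (61.1 rpm mature) and 0.0329% on miR-58a-3p. The shares were 58.8% on miR-42-5p and 0.998% on miR-42-3p, 38.3% on miR-84-3p and 0.383% on miR-84-5p, and 28.2% on miR-237-3p and 0.328% on miR-237-5p. The exceptions were miR-40, miR-77, miR-80 and miR-5592. By arm, the median share was 0.756% over 44 5p miRNAs and 1.24% over 65 3p miRNAs.

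In pash-1(ram33[G179R]) mutants most iso-miRs moved with their mature miRNA. Levels were compared with limma on log2(rpm rescaled by median-of-ratios size factors + 0.1), with Benjamini-Hochberg adjustment over all features. At 25 °C, 70 of the 105 iso-miRs that passed the filter were lower in mutants (39.3% of all 7070 features were) and 11 were higher (33.6% of all features). The median log2 fold change was -0.66 over the 105 and -0.04 over all features. At 20 °C, 34 of 104 were lower (3.84% of 7034 features) and 5 were higher (2.06%), with medians of -0.37 and -0.01. The iso-miR and its mature row never passed the test in opposite directions. Both passed in the same direction for 34 of 102 miRNAs with both rows tested at 20 °C and for 77 of 103 at 25 °C. The like count over all pairs was not made.

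Iso-miR and mature levels fell by like amounts for several miRNAs. At 25 °C the iso-miR of miR-248 fell by 3.01 and its mature row fell by 3.15, and for miR-51-5p the iso-miR fell by 2.37 and the mature row fell by 2.33. The iso-miR of miR-35-3p was 189, 149, 161 and 165 rpm in mutants at 25 °C, against 467, 500, 453 and 449 rpm in wild-type. Its mature row was 36293, 30525, 30662 and 32698 rpm in mutants, against 90991, 95117, 89205 and 86310 rpm in wild-type. Both rows were separated between the strains by more than the spread of the libraries. On the log2 scale the iso-miR fell by 2.09 ± 0.08 (SE, limma adjusted p = 3.44e-20) and the mature miRNA fell by 2.07, and the ratio was at -0.02 (95% interval -0.15 to 0.11).

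The counts of levels depend on scaling, since the size factors moved log2 fold changes by -0.37 at 20 °C and -0.59 at 25 °C relative to the deposited rpm. With rpm as deposited, 44 iso-miRs were lower and 37 higher at 25 °C, and 23 lower and 18 higher at 20 °C. With size factors from the CSR-class siRNAs the counts were 36 lower and 48 higher at 25 °C, and 18 lower and 6 higher at 20 °C. Scaled to the piRNA total, they were 84 lower and 8 higher at 25 °C. The shares over all features were not counted under these other scalings, so the counts show only the dependence on scaling. The ratio of iso-miR to mature miRNA cancels such scaling, apart from the 0.1 rpm added to each row.

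**Figure D1:**
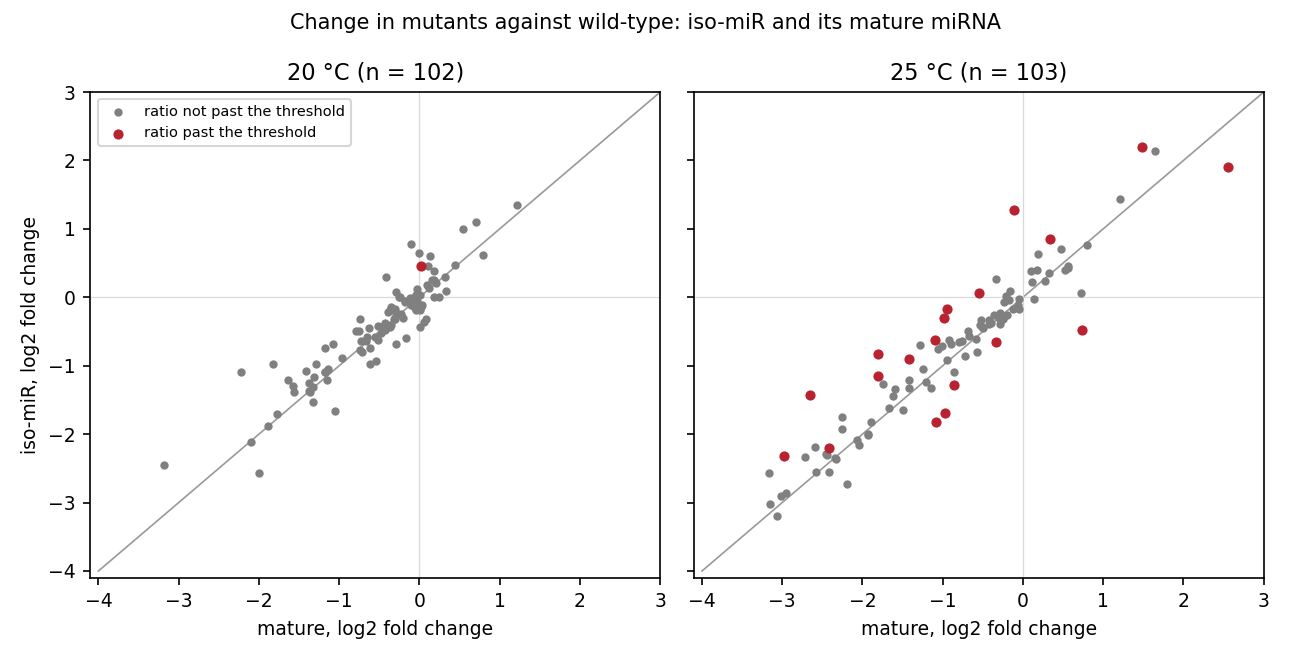
Log2 fold change of the iso-miR against that of its mature miRNA (mutant minus wild-type, rescaled rpm + 0.1) at 20 °C (102 miRNAs with both rows tested) and at 25 °C (103), with the line of equal change. Red points passed the test of the ratio. The iso-miRs of both temperatures lie along the line, and at 25 °C the red points lie on both sides of it.

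Few iso-miRs rose in level by the median-of-ratios scaling. Those of both mirtrons did so at each temperature. The iso-miR of miR-1020-3p was 133, 129, 131 and 173 rpm in mutants at 25 °C, against 23.1, 21.6, 22 and 18.3 rpm in wild-type, and 49.1, 48 and 45.9 rpm in mutants at 20 °C, against 16.6, 17.4 and 17.7 rpm in wild-type. No mutant library overlapped a wild-type library. Its log2 fold change of level was 2.14 ± 0.10 at 25 °C (SE, limma adjusted p = 2.44e-17) and 1.10 ± 0.13 at 20 °C (limma adjusted p = 2.54e-08). That of miR-4816-3p was 1.43 ± 0.15 at 25 °C and 0.99 ± 0.23 at 20 °C, the 20 °C call being lost without mutant replicate 3 (0.78 to 1.13 over the libraries left out). The ratio to the mature mirtron passed the test for neither, at 0.49 (95% interval 0.03 to 0.95) for miR-1020-3p and 0.22 (-0.17 to 0.61) for miR-4816-3p at 25 °C.

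The other iso-miRs higher in level at 25 °C were those of miR-8196a-3p, miR-48-5p, miR-48-3p, miR-84-5p, lin-4-5p, miR-57-5p, miR-90-3p, miR-54-5p and miR-1829a-5p. The list holds for the median-of-ratios scaling. More iso-miRs were higher with rpm as deposited or with CSR-class size factors, as counted above. lin-4, miR-48 and miR-84 time larval development, and miR-57 acts in the patterning of the posterior body. Log2 fold changes of level ran from 0.35 for miR-84-5p to 2.19 for miR-1829a-5p. The iso-miR of miR-1829a-5p had about 49 to 67 reads in mutants at 25 °C and 6 to 10 in wild-type. At 20 °C it had 6 to 19 over both strains. It thus passed the 1 rpm limit through the 25 °C mutants, and the limit favours its rise. The iso-miR of miR-48-3p also passed the limit through the mutants, and its rise is favoured in the same way. Under scaling to the piRNA total 3 of the iso-miRs listed lost their call: miR-84-5p, whose sign turned to -0.012, lin-4-5p at 0.02 and miR-54-5p at 0.05. The call of miR-54-5p, at 0.40, was lost without mutant replicate 2 or 4 or wild-type replicate 1, 2 or 4 (0.29 to 0.52). At 20 °C the others were miR-8196a-3p, miR-48-5p and miR-1822-3p, and miR-1822-3p, at 0.48, lost its call without mutant replicate 1, 2 or 3 or wild-type replicate 2 (0.44 to 0.52). That of miR-48-5p, at 0.46, was lost without mutant replicate 1 or 3 (0.37 to 0.56 over the libraries left out).

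The ratio of iso-miR to mature miRNA, taken as log2((iso-miR + 0.1)/(mature + 0.1)) in rpm within a library and tested with limma over all pairs, changed for a minority. At 25 °C, 13 of 109 ratios were higher in mutants (16.6% of all 241 pairs) and 8 were lower (7.47%), and 88 did not pass. The median log2 fold change was 0.10 over the 109 and 0.13 over all pairs. At 20 °C, 1 ratio was higher (2.51% of 239 pairs) and 1 was lower (1.26%). The shares among the 109 were thus near or below those over all pairs. Sizes were small: 84 of 109 were within 0.5 of no change at 25 °C and 95 at 20 °C, and for 87 and 86 the 95% interval lay within a 1 log2 unit change.

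The counts moved with how the spread was estimated and with the constant added. The test borrowed the spread from pairs of like ratio. When it was borrowed instead from pairs of like iso-miR abundance, a choice made after seeing the data, 21 of 109 were higher at 25 °C (21.6% of all pairs) and 9 lower (7.88%), and at 20 °C 8 were higher (7.95%) and 6 lower (5.44%). Of the 21 calls at 25 °C, 19 were kept, and miR-1829a-5p and miR-39-5p were not. Adding 1 rpm in place of 0.1 gave 37 higher and 11 lower at 25 °C, and 12 higher and 10 lower at 20 °C. The shares over all pairs were not counted with 1 rpm added, so these counts show only how the calls depend on the constant.

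**Figure D2:**
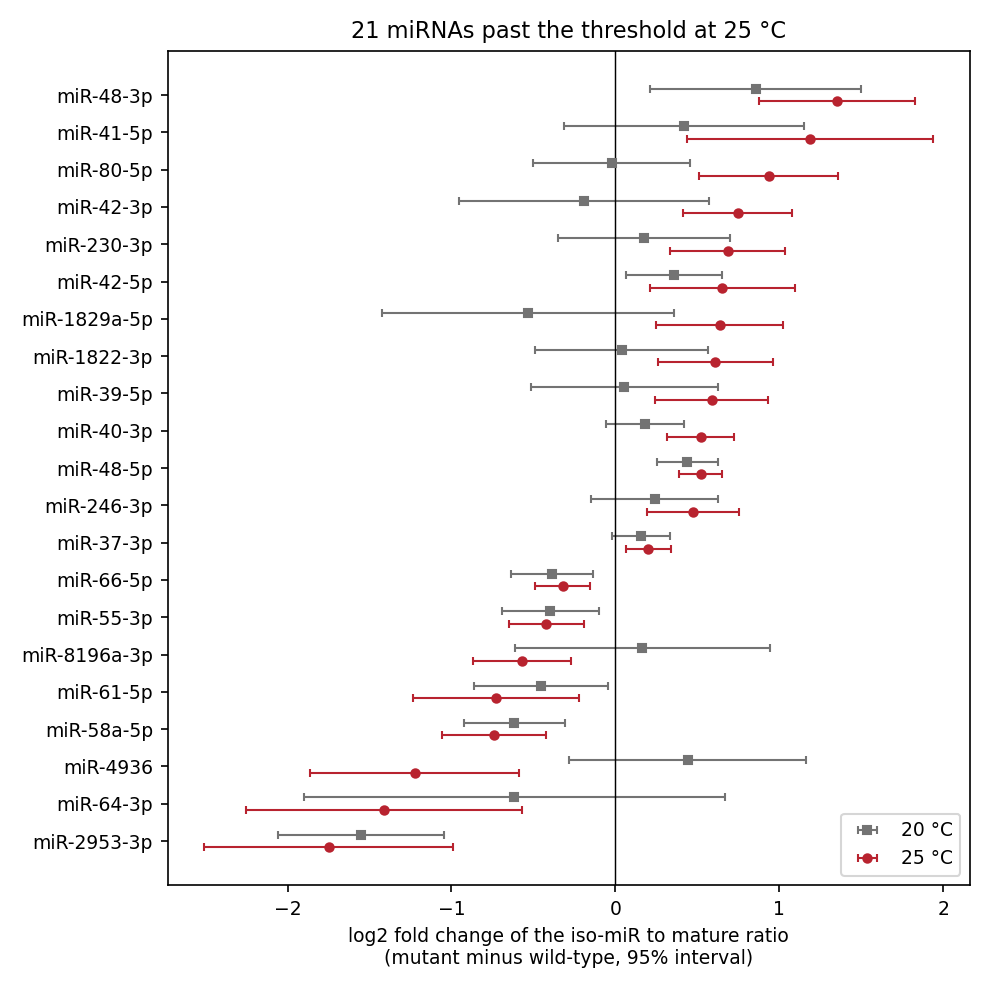
Log2 fold change of the iso-miR to mature ratio (mutant minus wild-type) with its 95% interval for the 21 miRNAs past the threshold at 25 °C, at 25 °C (red circles) and at 20 °C (grey squares). The values at 25 °C run from -1.75 for miR-2953-3p to 1.35 for miR-48-3p. The sign is the same at 20 °C for 16 of the 21, a count not made for the other pairs.

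Both arms of miR-48, a let-7 family miRNA from V:14364412-14364509 that times larval development, rose in ratio. The iso-miR of miR-48-5p was 0.625, 0.621, 0.629 and 0.608% of its pair in mutants at 25 °C, against 0.442, 0.444, 0.434 and 0.414% in wild-type. Grown at 20 °C, the shares were 0.524, 0.53 and 0.539% in mutants, against 0.411, 0.383 and 0.382% in wild-type. Every mutant library was above every wild-type library, at both temperatures. The log2 fold change of the ratio was 0.52 ± 0.06 at 25 °C (SE, limma adjusted p = 0.00112) and 0.44 ± 0.07 at 20 °C (limma adjusted p = 0.0381). At 25 °C the level rose in both rows, by 0.85 in the iso-miR and 0.33 in the mature row. At 20 °C the mature row was at 0.02. The 25 °C call was kept without each library, and the 20 °C call was lost without any 1 of the 6 libraries, with the value between 0.42 and 0.47.

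miR-48-3p, the weaker arm, had an iso-miR share of 5.64, 6.03, 4.37 and 4.65% in mutants at 25 °C, against 2.51, 1.89, 2.02 and 1.44% in wild-type. The 20 °C shares were 3.48, 5.07 and 6.22% in mutants, against 2.46, 2.74 and 2.5% in wild-type. The strains did not overlap at either temperature, though the lowest mutant library lay close to wild-type at 20 °C. The log2 fold change was 1.35 ± 0.20 at 25 °C (SE, limma adjusted p = 0.00351), a 2.56-fold higher ratio, and 0.86 ± 0.26 at 20 °C (limma adjusted p = 0.15). About 18 to 27 reads stood behind the wild-type iso-miR values at 25 °C and 53 to 85 behind those of mutants. At 20 °C these were about 13 to 21 in wild-type and 31 to 56 in mutants. The iso-miR thus passed the 1 rpm limit through the mutants, and the limit favours its rise in level and in ratio. Among the other let-7 family members, the ratio of let-7-5p was -0.23 (95% interval -0.57 to 0.10) and that of miR-84-5p 0.02 (-0.20 to 0.24) at 25 °C.

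The miR-35 family, 8 miRNAs that act redundantly in embryos, had 12 iso-miRs here. At 25 °C, 6 of the 12 ratios were higher in mutants and none was lower, with a median of 0.46, beside 16.6% higher and 7.47% lower over all pairs and a median of 0.13. At 20 °C none passed the test, 1 did so unadjusted, and the median was 0.06. The iso-miR level was lower in mutants for 10 of the 11 tested at 25 °C (39.3% of all features were). In each of the 6 the log2 fold change of level was lower in the mature row than in the iso-miR. A higher ratio implies this, so it is no separate result.

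miR-40-3p, from the miR-35 cluster at II:11538184-11538275, had an iso-miR share of 1.42, 1.26, 1.3 and 1.38% in mutants at 25 °C, against 0.932, 0.945, 0.942 and 0.925% in wild-type. At 20 °C it was 0.802, 0.835 and 0.77% in mutants, against 0.707, 0.686 and 0.731% in wild-type. The strains were apart at both temperatures, and wider apart at 25 °C. The log2 fold change was 0.52 ± 0.09 at 25 °C (SE, limma adjusted p = 0.0058) and 0.18 ± 0.10 at 20 °C (limma adjusted p = 0.358). In level the mature row fell by 1.42 and the iso-miR fell by 0.90 at 25 °C.

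miR-42 lies apart from that cluster, at II:11889811-11889905, and both its arms passed at 25 °C. The iso-miR of miR-42-3p was 1.04, 1.33, 1.15 and 1.4% of its pair in mutants, against 0.715, 0.609, 0.748 and 0.841% in wild-type. That of miR-42-5p was 60.8, 66.9, 70.5 and 73.8% in mutants, against 58.5, 59.8, 57.3 and 54.3% in wild-type. Neither arm overlapped between the strains, with log2 fold changes of 0.75 ± 0.14 for miR-42-3p (SE, limma adjusted p = 0.0101) and 0.65 ± 0.19 for miR-42-5p (limma adjusted p = 0.0416). At 20 °C the strains overlapped for miR-42-3p, at -0.19 (95% interval -0.95 to 0.57), and not for miR-42-5p, at 0.36 (0.06 to 0.65). The call of miR-42-3p was kept without each library. That of miR-42-5p was lost without any library but mutant replicate 1, at 0.52 to 0.81.

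The remaining miR-35 family calls were weaker. miR-37-3p had 0.592, 0.625, 0.594 and 0.618% in mutants at 25 °C, against 0.533, 0.543, 0.518 and 0.521% in wild-type, a log2 fold change of 0.20 ± 0.06 (SE, limma adjusted p = 0.0416). The strains were separated, but the call was lost without any 1 of the 8 libraries (0.19 to 0.21). For miR-41-5p (1.19) mutant replicate 4, at 0.558%, lay among the wild-type libraries at 0.441 to 0.633%, and the call was kept only without that library, at 1.49. The call of miR-39-5p (0.59) was lost without 6 of the 8 libraries, all but mutant replicate 4 and wild-type replicate 2, at 0.52 to 0.68. About 8 to 14 reads stood behind its mutant values, and the shares overlapped between the strains (1.09 to 1.6% in mutants, against 0.912 to 1.17% in wild-type). The most abundant member, miR-35-3p, had the ratio near 0 given above.

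**Figure D3:**
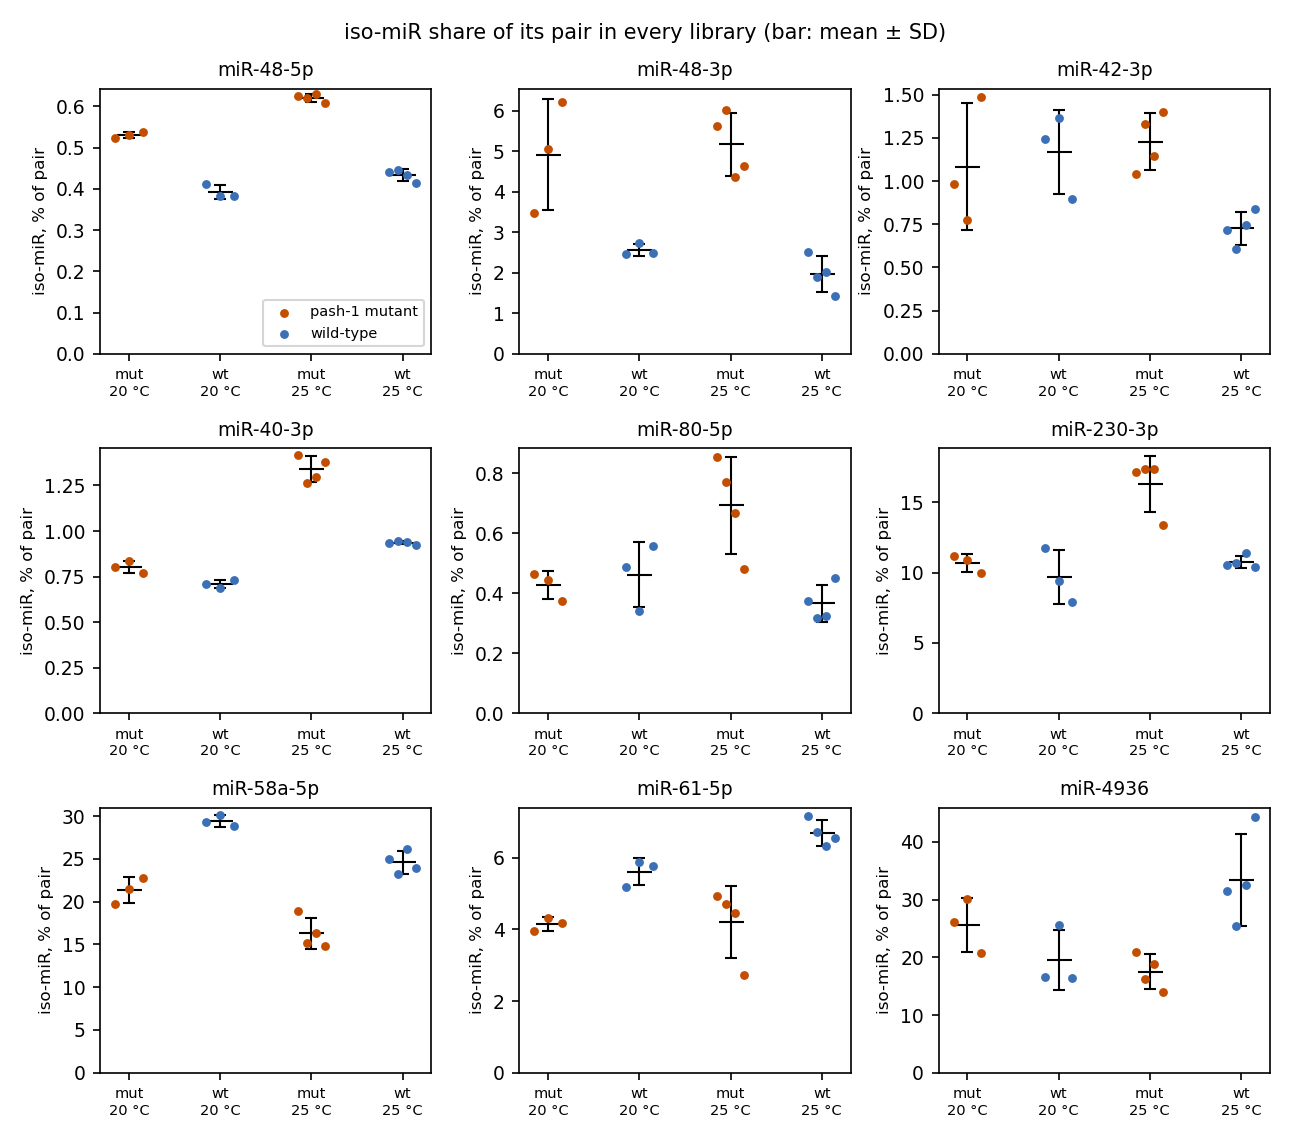
Iso-miR share of its pair (percent of iso-miR plus mature rpm, axes from 0) in every library for 9 miRNAs past the threshold at 25 °C, with mutants in orange and wild-type in blue at 20 °C (3 libraries each) and 25 °C (4 each), and bars for the mean ± SD. At 25 °C the mutant libraries lie above wild-type in the upper 6 panels and below it in the lower 3. For miR-230-3p and miR-61-5p mutant replicate 4 is the lowest of its group, at 13.4% and 2.73%.

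Among the other miRNAs with a higher ratio was miR-80-5p, the weaker arm of a miR-58 family hairpin at III:8865270-8865367. Its iso-miR share was 0.854, 0.772, 0.666 and 0.48% in mutants at 25 °C, against 0.372, 0.318, 0.322 and 0.451% in wild-type. The strains did not overlap, though mutant replicate 4 came close to wild-type, and the log2 fold change was 0.94 ± 0.18 (SE, limma adjusted p = 0.0111). At 20 °C they overlapped, at -0.02 (95% interval -0.50 to 0.46). The main arm, miR-80-3p, was at 0.10 (-0.04 to 0.23) at 25 °C.

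miR-246-3p, whose level in adults has been linked to lifespan, had among the tightest separations. Its iso-miR share was 7.02, 6.97, 7.12 and 7.32% in mutants at 25 °C, against 5.34, 5.25, 5.15 and 5.13% in wild-type. At 20 °C it was 5.93, 5.61 and 5.75% in mutants, against 4.74, 4.98 and 5.05% in wild-type. No library overlapped at either temperature. The log2 fold change was 0.47 ± 0.12 at 25 °C (SE, limma adjusted p = 0.0262) and 0.24 ± 0.15 at 20 °C (limma adjusted p = 0.507). With the spread taken from pairs of like abundance the adjusted p-values were 5.99e-17 and 2.42e-06. The 25 °C call was lost without any 1 of the 8 libraries, at 0.46 to 0.49, and its range over all alternatives was 0.45 to 0.49.

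miR-230-3p had 17.2, 17.4, 17.4 and 13.4% in mutants at 25 °C, against 10.5, 10.7, 11.4 and 10.4% in wild-type, with a log2 fold change of 0.68 ± 0.15 (SE, limma adjusted p = 0.0194). Mutant replicate 4 was the lowest of its group and still above wild-type. The call was lost without wild-type replicate 4, at 0.65 to 0.79 over the libraries left out. miR-1822-3p, from an intron of ZK84.2, had 62.2, 62.9, 56 and 55.4% in mutants at 25 °C, against 47.5, 46.9, 52.9 and 47.3% in wild-type. Its log2 fold change was 0.61 ± 0.15 (SE, limma adjusted p = 0.0248), lost without 5 of the 8 libraries: mutant replicates 1 and 2 and wild-type replicates 1, 2 and 4 (0.54 to 0.69). The iso-miR level of miR-1822-3p was at 0.06 while its mature row fell by 0.55.

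The miR-1829 family sits in introns, that of miR-1829a in gas-1 at X:15588311-15588370. miR-1829a-5p had an iso-miR share of 0.358, 0.441, 0.555 and 0.421% in mutants at 25 °C, against 0.235, 0.295, 0.223 and 0.172% in wild-type. The strains did not overlap, and the log2 fold change was 0.64 ± 0.17 (SE, limma adjusted p = 0.0292). With the spread from pairs of like abundance the limma adjusted p was 0.108. At 20 °C the strains overlapped and the value lay on the other side of 0, at -0.53 (95% interval -1.42 to 0.36). The wild-type values at 25 °C rested on about 6 to 10 reads per library, and the sign turned when 1 rpm was added in place of 0.1 (-0.55). The iso-miR passed the 1 rpm limit through the 25 °C mutants, and the limit bears on this ratio too. The call was lost without 6 of the 8 libraries, all but mutant replicate 1 and wild-type replicate 2, at 0.53 to 0.74. miR-1829b-3p and miR-1829c-3p have nearly identical rows, and their ratios were -0.14 and -0.17.

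The lower ratios included the weaker arm of miR-58a. miR-58a-5p had an iso-miR share of 18.9, 15.1, 16.4 and 14.8% in mutants at 25 °C, against 25, 23.2, 26.2 and 23.9% in wild-type. The shares at 20 °C were 19.8, 21.5 and 22.7% in mutants, against 29.3, 30.2 and 28.8% in wild-type. All mutant libraries lay below all wild-type libraries at both temperatures. The log2 fold change was -0.74 ± 0.14 at 25 °C (SE, limma adjusted p = 0.00886) and -0.62 ± 0.12 at 20 °C (limma adjusted p = 0.0733). The 25 °C call was kept without each library, at -0.83 to -0.69. The main arm, miR-58a-3p, had 0.0354, 0.0366, 0.0379 and 0.0384% in mutants at 25 °C, against 0.0387, 0.0339, 0.031 and 0.0318% in wild-type, and its ratio was 0.13 (95% interval -0.14 to 0.40).

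miR-61-5p is the weaker arm of a hairpin at V:11770060-11770156, whose main product promotes a vulval cell fate. Its iso-miR share was 4.93, 4.71, 4.47 and 2.73% in mutants at 25 °C, against 7.17, 6.73, 6.32 and 6.55% in wild-type, and 3.95, 4.32 and 4.18% in mutants at 20 °C, against 5.17, 5.87 and 5.77% in wild-type. The strains were apart at both temperatures, and mutant replicate 4 was the lowest at 25 °C. The log2 fold change was -0.73 ± 0.22 at 25 °C (SE, limma adjusted p = 0.0451). Without replicate 4 of the mutants it was -0.53 and kept its call, and without any other library it was lost, down to -0.82. The main arm, miR-61-3p, was at 0.06 (95% interval -0.09 to 0.21).

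miR-55-3p of the miR-51 family had 0.671, 0.739, 0.648 and 0.599% in mutants at 25 °C, against 0.903, 0.917, 0.941 and 0.796% in wild-type. miR-66-5p, from an intron of gcn-1, had 0.593, 0.567, 0.602 and 0.599% in mutants, against 0.693, 0.71, 0.768 and 0.777% in wild-type. Both were below wild-type without overlap, also at 20 °C. The log2 fold changes at 25 °C were -0.42 ± 0.10 for miR-55-3p (SE, limma adjusted p = 0.0216) and -0.32 ± 0.07 for miR-66-5p (limma adjusted p = 0.0194). The call of miR-55-3p was lost without wild-type replicate 1, 2 or 3 (-0.48 to -0.37) and that of miR-66-5p without wild-type replicate 3 or 4 (-0.35 to -0.29).

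miR-4936 differed in sign between the temperatures. Its iso-miR share was 20.9, 16.2, 18.8 and 14% in mutants at 25 °C, against 31.5, 25.4, 32.5 and 44.3% in wild-type, and 26.1, 30.1 and 20.7% in mutants at 20 °C, against 16.7, 25.6 and 16.4% in wild-type. The strains overlapped at 20 °C only. The log2 fold change was -1.22 ± 0.27 at 25 °C (SE, limma adjusted p = 0.0194) and 0.44 ± 0.29 at 20 °C (limma adjusted p = 0.512). At 25 °C the mature level rose by 0.74 and that of the iso-miR was at -0.47.

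The last 3 lower ratios belonged to miRNAs whose iso-miR exceeded the mature row in all 14 libraries. The iso-miR of miR-8196a-3p rose in level, to 117, 107, 117 and 109 rpm in mutants at 25 °C, against 23.1, 20.3, 17.2 and 19.2 rpm in wild-type, and its mature row rose to 3.25, 3.58, 2.63 and 2.92 rpm in mutants, against 0.33, 0.27, 0.26 and 0.26 rpm in wild-type. The ratio was -0.57 ± 0.13 (SE, limma adjusted p = 0.0195) and turned to 0.77 with 1 rpm added, and its call was lost without wild-type replicate 1, 2 or 4 (-0.66 to -0.47). The iso-miR of miR-2953-3p fell in level, to 0.61, 1.26, 2.05 and 1.28 rpm in mutants at 25 °C, against 3.92, 5.74, 4 and 5.61 rpm in wild-type, and to 2.72, 2.39 and 3.26 rpm in mutants at 20 °C, against 9.75, 8.65 and 10.3 rpm in wild-type. Its ratio, -1.75 at 25 °C (limma adjusted p = 0.00935) and -1.55 at 20 °C (limma adjusted p = 0.029, lost without any library but mutant replicate 3, at -1.69 to -1.44), repeats this fall in level, and the share of the pair was 99.1 to 100% in every library. miR-64-3p, at -1.41, overlapped between the strains, and its call was lost without 6 of the 8 libraries, all but mutant replicate 4 and wild-type replicate 3, at -1.73 to -1.21.

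Other abundant miRNAs did not pass the test of the ratio. miR-1-3p had an iso-miR share of 0.342, 0.339, 0.347 and 0.346% in mutants at 25 °C, against 0.33, 0.335, 0.335 and 0.332% in wild-type. All mutant libraries were higher, by 0.04 on the log2 scale (95% interval -0.07 to 0.16), which passed with the spread from pairs of like abundance (limma adjusted p = 0.0118). At 20 °C it was at -0.01 (-0.17 to 0.16), and the strains overlapped. For miR-71-5p, which is needed for normal adult lifespan, the ratio was 0.09 (-0.06 to 0.24) at 25 °C. miR-238-3p had 2.11, 2.13, 2.2 and 2.13% in mutants at 25 °C, against 1.75, 1.81, 1.72 and 1.71% in wild-type, and 2.03, 1.98 and 1.94% in mutants at 20 °C, against 1.58, 1.54 and 1.75% in wild-type. The strains were apart at both temperatures, at 0.30 in each, but the test was not passed (limma adjusted p = 0.0749 at 25 °C and 0.329 at 20 °C). This ratio too passed with the spread from pairs of like abundance, with limma adjusted p = 1.1e-08 at 25 °C and 1.36e-05 at 20 °C.

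The arm cut by Drosha did not stand out by count. Over all pairs, 16.6% of ratios were higher and 7.47% lower in mutants at 25 °C. At 20 °C these shares were 2.51% and 1.26%. Of 44 miRNAs on the 5p arm, 6 ratios were higher and 3 lower in mutants at 25 °C, with a median log2 fold change of 0.11. Of 65 on the 3p arm, 7 were higher and 5 lower, with a median of 0.10. At 20 °C, 1 ratio on the 5p arm was higher and 1 on the 3p arm was lower, with medians of 0.00 and 0.07. Among the 27 miRNAs from the weaker arm of their hairpin, 4 were higher and 4 lower at 25 °C, and among the 77 from the stronger arm 9 were higher and 3 lower.

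In the other families the counts at 25 °C were small, beside 16.6% of ratios higher and 7.47% lower over all pairs. In the let-7 family 2 of 6 ratios were higher (both arms of miR-48), and the limit on the iso-miR favours that of miR-48-3p. In the miR-58 family 1 of 6 was higher and 1 lower (miR-80-5p and miR-58a-5p). In the miR-51 family 1 of 8 was lower, in the miR-63 family 2 of 7 and in the miR-44 family 1 of 6. In the lin-4 family, with lin-4-5p at 0.28 (95% interval 0.03 to 0.53), none of 3 passed. miR-44-3p and miR-45-3p share all their mature reads, and miR-5592 is listed on overlapping hairpins of both strands, so their rows are not independent.

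The difference between the temperatures was itself tested, as an interaction term over the 14 libraries. No member passed in either direction, and of 232 pairs 0% passed as lower and 0% as higher at 25 °C than at 20 °C. Unadjusted, 10 of the 109 were higher and 4 lower at p under 0.05, beside 21 and 9 of all 232 pairs, a like share. With the spread from pairs of like abundance, a choice made after seeing the data, 5 members passed. The number over all pairs was not counted for that fit, so the 5 cannot be set against a share. In that fit the effect on the ratio was higher at 25 °C for miR-246-3p by 0.23 (95% interval 0.15 to 0.32), miR-240-3p by 0.24 (0.14 to 0.34) and miR-40-3p by 0.34 (0.16 to 0.52). It was lower for miR-4936, at -1.67 (-2.49 to -0.84), and miR-788-5p, at -1.65 (-2.58 to -0.72). Of the 21 calls at 25 °C, 16 had the same sign at 20 °C. Signs were not compared between the temperatures for the other pairs, so this count has no share beside it and is a description.

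Summed over the 109, shifted starts took the same part of the reads in both strains to within a few percent. Iso-miR rpm per 1000 rpm of mature miRNA was 5.69, 5.7, 5.73 and 5.73 in mutants at 25 °C, against 5.71, 5.76, 5.57 and 5.64 in wild-type. At 20 °C it was 5.33, 5.47 and 5.48 in mutants, against 5.62, 5.51 and 5.58 in wild-type. The strains overlapped at 25 °C, and at 20 °C the mutants lay just below wild-type. The means were 5.71 ± 0.02 in mutants and 5.67 ± 0.08 in wild-type at 25 °C (SD, n = 4 each), and 5.42 ± 0.08 in mutants and 5.57 ± 0.06 in wild-type at 20 °C (SD, n = 3 each).

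At 25 °C the sign of that sum depended on which miRNAs were counted, and at 20 °C it was negative in each version tried. The difference between mutants and wild-type was 0.73% at 25 °C and -2.69% at 20 °C over all 109. Without miR-1-3p it was 3.91% at 25 °C and -1.42% at 20 °C, and without the 5 iso-miRs of highest level it was -4.46% and -5.69%. With only members whose mature row averaged at least 100 rpm it was -4.45% and -4.18%. Leaving out 1 library kept it between 0.15 and 1.27% at 25 °C and between -3.21 and -1.82% at 20 °C.

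**Figure D4:**
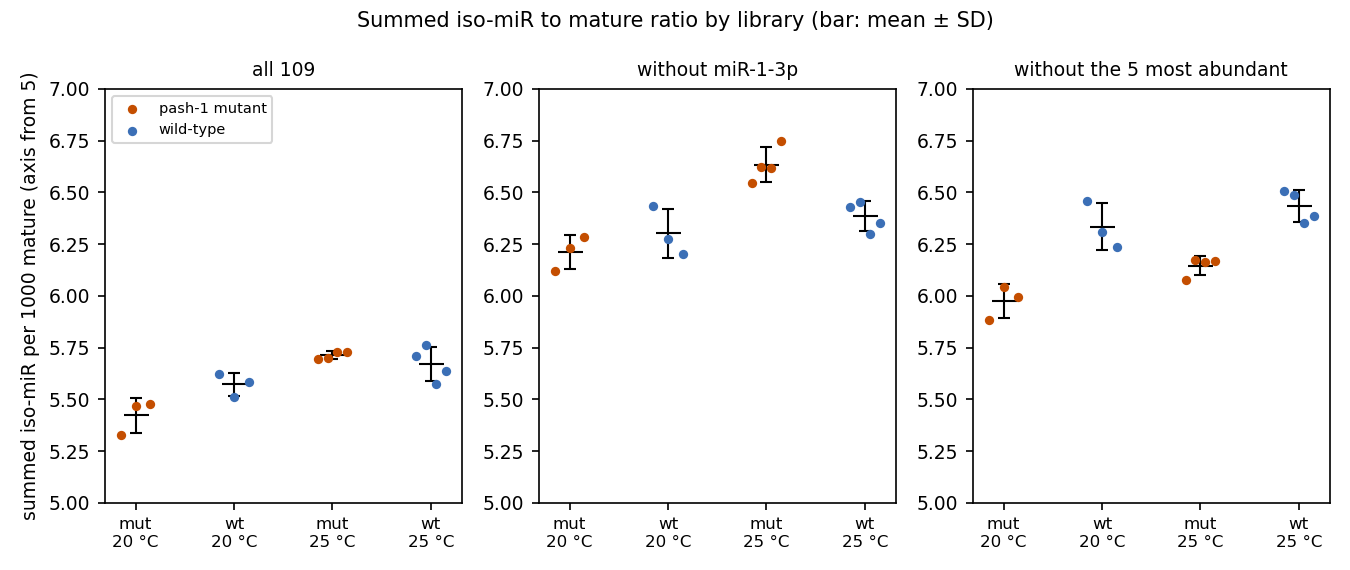
Summed iso-miR rpm per 1000 summed mature rpm in each library (points, mutants in orange and wild-type in blue, bars for the mean ± SD; the axis starts at 5) over all 109 miRNAs, without miR-1-3p and without the 5 iso-miRs of highest level. Over all 109 the libraries span 5.33 to 5.76, and without the 5 the mutants lie below wild-type at both temperatures.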

How the data were processed

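Small RNA-seq of whole adults was analysed from 14 libraries in 2 tables, 1 per temperature. The authors used fastp for trimming, bowtie for alignment to genome release WS279 and tinyRNA for counting, whose rules took a 5′ end at the annotated base as miRNA and one 1 to 3 nt away as iso-miR. The authors deposited rpm, scaled to library size. In the 20 °C table the class names stood 1 line off their features and were put back. Of low values (under 1 rpm), 87.5 to 91.5% were whole reads within rounding, too few for a count test.

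Computed here, with Python 3.11.15, pandas 2.3.3, R 4.3.3 and limma 3.58.1, were iso-miR levels and within-library ratios, fitted 1 temperature at a time (lmFit, eBayes with trend and robust options, 0.1 rpm added, features or pairs averaging at least 1 rpm, Benjamini-Hochberg over all of them, threshold 0.05). The fits were run on simulated data with changes of 1 log2 unit and a single setting of the spread, which does not test smaller changes. Summed ratios got no test. Hairpin positions came from WBcel235 by name. Named are the 10 most abundant iso-miRs, the 5 highest and 5 lowest shares, up to 5 ratio calls per direction and temperature without overlap, miRNAs the study discusses and iso-miRs higher in level. The remaining ratio calls were named after their values were seen. The members and lists were chosen with earlier results of these data known. The study calls the libraries biological replicates. Neither it nor the labels say whether these came from separate cultures, so p-values may understate the spread between cultures.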

Additional observations from a re-analysis of the deposited data

Results flagged for a closer look

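Among the named miRNAs and the summed ratio, 96 groups of 4 libraries at 25 °C were checked for a library far from the other 3 by Dixon's gap test at the 95% level, and 7 had such a library. Chance gives about 1 in 20 groups. For miR-230-3p the iso-miR share was 13.4% in mutant replicate 4 and 17.2 to 17.4% in the other mutants. For let-7-5p it was 0.122% in mutant replicate 4 and 0.174 to 0.181% in the others. For miR-51-5p it was 0.648% in mutant replicate 3 and 0.705 to 0.71% in the others, and for miR-82-3p it was 0.0625% in mutant replicate 2 and 0.0406 to 0.0434% in the others. Among wild-type libraries, miR-1822-3p was at 52.9% in replicate 3 and 46.9 to 47.5% in the others. The nearly empty mature rows of miR-2953-3p (99.1% in wild-type replicate 2) and miR-64-3p (97% in wild-type replicate 3) had a share of 100% in the other 3 wild-type libraries.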

How the results depend on the processing

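For levels, shares over all features were counted in the main fit only, so the counts here show the dependence on processing. Counts of iso-miR levels at 20 °C (34 lower, 5 higher in mutants) became 22 and 2 without the trend and robust options. They became 18 lower with CSR-class size factors and 18 higher with rpm as deposited. Leaving out 1 library gave 29 to 39 lower and 2 to 5 higher, with 3 higher without mutant replicate 1 and 2 without mutant replicate 3. At 25 °C (70 lower, 11 higher) they became 44 lower with a filter of 5 rpm, 44 lower and 37 higher with rpm as deposited, and 36 lower and 48 higher with CSR-class size factors; leaving out 1 library gave 68 to 73 lower and 10 to 13 higher.

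Counts of ratios at 20 °C (1 lower, 1 higher) became 10 and 12 with 1 rpm added, 0 and 0 with 0.01 rpm added, 0 higher without a filter, 2 lower with a filter of 5 rpm, 0 higher without the trend and robust options, 0 lower as a share of the pair, 0 lower with both rows at 1 rpm or more, and 6 and 8 with the spread taken over abundance. Leaving out 1 library gave 0 to 1 lower and 0 higher. At 25 °C (8 lower, 13 higher) they became 37 higher with 1 rpm added, 5 and 8 with 0.01 rpm added, 5 lower as a share of the pair and 21 higher with the spread over abundance. Leaving out 1 library gave 4 to 8 lower and 5 to 10 higher, and 8 of the 21 calls were kept without every library. The temperature difference (0 lower, 0 higher) became 4 and 10 with 1 rpm added and 2 and 3 with the spread over abundance, and 1 higher without wild-type 20 °C replicate 2. The spread over abundance and the 1 rpm limit on both rows were chosen after seeing the data, and the cause of these moves was not tested. Shares over all pairs were counted only for the main fits and, within each temperature, for the spread over abundance.

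Same-numbered libraries of the strains correlated at -0.148 to 0.102 in their deviations, so the numbers do not pair them. With the replicate number as a block, 0 ratios were lower and 0 higher at 20 °C, and 4 lower and 4 higher at 25 °C.

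The summed ratio moved to -5.69% at 20 °C and -4.46% at 25 °C without the 5 iso-miRs of highest level, to -4.18% and -4.45% with mature rows of at least 100 rpm, and to 3.91% at 25 °C without miR-1-3p. The sign turned for miR-2953-3p as a share of the pair (0.0023 at 20 °C, 0.0031 at 25 °C), for miR-8196a-3p (0.77) and miR-1829a-5p (-0.55) at 25 °C with 1 rpm added, and for the level of miR-84-5p at 25 °C scaled to the piRNA total (-0.012). Of the other values of single miRNAs, 1765 kept direction and side of the threshold, 133 lost their call and 34 gained one. Depth limits the 11 iso-miRs with under 10 reads in a library. In low rows the size of a ratio change, and for the miRNAs just named its sign, depends on the constant added or the measure used.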
